A study of Mus musculus with 19 samples.

Results

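The plasma cell program genes are 10 genes chosen by symbol: the transcription regulators Prdm1, Xbp1, Irf4 and Pou2af1, the surface proteins Sdc1 and Tnfrsf17, and the secretory genes Mzb1, Jchain, Derl3 and Fkbp11. All 10 were present among the 34432 genes of the deposited table, and 9 of them passed the minimum mean of 10 normalized counts and were tested among 13976 genes. Tnfrsf17 did not reach that minimum. The libraries were made from polyadenylated RNA of whole bone marrow, washed out of tibiae and femurs of C57BL/6 mice aged 8 weeks. The groups were wild type (WT, 3 libraries), the Vav-iCre transgene alone (VAV, 4 libraries), Cdk8 flox/flox with Vav-iCre (CDK8KO, 4 libraries), Cdk19 null (CDK19KO, 4 libraries) and Cdk8 flox/flox Vav-iCre Cdk19 null (DKO, 4 libraries). CDK8 and CDK19 are related kinases of the Mediator complex, which links transcription factors to RNA polymerase II. Vav-iCre expresses Cre in blood cells, so Cdk8 was targeted in blood cells while the Cdk19 null allele was present in all cells. WT and CDK19KO carried no Cre transgene, and no group had Cre together with the Cdk19 null allele alone. The labels number the libraries without stating that each came from a separate mouse, and p-values here describe only the scatter among libraries, part of which may be technical.

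Plasma cells are the antibody-secreting end stage of the B lineage, and the marrow holds long-lived ones in small numbers. BLIMP-1, the product of Prdm1, shuts off B cell identity genes, and XBP1, once its mRNA is spliced by the endoplasmic reticulum sensor IRE1, turns on genes for protein folding and secretion. IRF4 is needed for the plasma cell state but also acts in B cell precursors and dendritic cells, OCA-B, the product of Pou2af1, is a B lineage coactivator of octamer-binding factors, and Xbp1 and Prdm1 are also used by blood cells outside the B lineage. Marker levels in whole marrow therefore sum several cell types.

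In the GENCODE vM21 annotation (GRCm38) all 10 members are protein-coding genes. The regulators span chr10:44437177-44528501 (Prdm1, minus strand), chr11:5520659-5525893 (Xbp1, plus strand), chr13:30749226-30766976 (Irf4, plus strand) and chr9:51213708-51240080 (Pou2af1, plus strand). The surface genes span chr12:8771323-8793715 (Sdc1, plus strand) and chr16:11313812-11320074 (Tnfrsf17, plus strand). The secretory genes other than Mzb1 span chr5:88519809-88527891 (Jchain, minus strand), chr10:75893413-75895941 (Derl3, plus strand) and chr15:98724366-98728198 (Fkbp11, minus strand).

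Promoter windows were shown for the 2 regulators that differed most clearly between genotypes, Xbp1 and Prdm1, and for the 2 members whose windows held a searched motif, Derl3 and Pou2af1. Each window holds 300 bases, from 250 before to 50 after a RefSeq transcription start in build GRCm38.p6, and 9 of the 10 members had one (10 windows in all, since Fkbp11 had 2). The windows lie at chr11:5520391-5520690 (plus strand) for Xbp1, chr10:44458699-44458998 (minus strand) for Prdm1, chr10:75893148-75893447 (plus strand) for Derl3 and chr9:51213440-51213739 (plus strand) for Pou2af1. Capitals mark motif matches, and the Xbp1 and Prdm1 windows held none. The Prdm1 window lies inside the annotated span of its gene.
Xbp1: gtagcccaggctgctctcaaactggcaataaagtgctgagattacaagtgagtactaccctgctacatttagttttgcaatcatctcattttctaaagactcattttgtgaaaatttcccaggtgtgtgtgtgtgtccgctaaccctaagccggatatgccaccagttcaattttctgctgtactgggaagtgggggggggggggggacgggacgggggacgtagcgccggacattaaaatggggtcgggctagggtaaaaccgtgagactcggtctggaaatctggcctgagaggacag
Prdm1: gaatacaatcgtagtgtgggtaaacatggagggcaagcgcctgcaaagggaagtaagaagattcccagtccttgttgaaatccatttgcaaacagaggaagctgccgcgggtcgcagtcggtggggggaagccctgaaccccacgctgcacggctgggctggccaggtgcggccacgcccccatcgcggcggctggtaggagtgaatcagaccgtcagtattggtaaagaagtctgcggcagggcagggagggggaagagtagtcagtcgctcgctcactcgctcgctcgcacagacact
Derl3: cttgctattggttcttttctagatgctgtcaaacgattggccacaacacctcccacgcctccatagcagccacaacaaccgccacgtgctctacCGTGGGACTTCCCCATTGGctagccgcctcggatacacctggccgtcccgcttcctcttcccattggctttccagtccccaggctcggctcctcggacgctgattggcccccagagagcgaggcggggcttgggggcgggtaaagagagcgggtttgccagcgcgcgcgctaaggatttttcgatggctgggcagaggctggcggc
Pou2af1: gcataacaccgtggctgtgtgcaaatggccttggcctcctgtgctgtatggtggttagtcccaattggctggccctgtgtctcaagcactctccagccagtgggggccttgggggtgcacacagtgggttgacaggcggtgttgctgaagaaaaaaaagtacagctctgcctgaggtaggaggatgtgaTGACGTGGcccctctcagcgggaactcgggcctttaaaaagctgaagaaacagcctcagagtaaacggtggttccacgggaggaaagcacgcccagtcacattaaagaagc
The motifs were searched on both strands. They were the endoplasmic reticulum stress element (CCAAT and CCACG with 9 bases between them), the unfolded protein response element (TGACGTGG, whose reverse complement shares the letters CCACG with the end of the first), the octamer (ATGCAAAT), the ETS-IRF composite element (GGAA and GAAA with 2 bases between them) and a PRDM1 core (GTGAAAGT). The Derl3 window held the endoplasmic reticulum stress element on the minus strand, with its first base at -156 from the start. The Pou2af1 window held the unfolded protein response element on the plus strand at -61. Of 32851 RefSeq promoter windows of the same length, 0.119% held the first of these motifs, 0.676% the second, 1.74% the octamer, 2.72% the composite element and 0.846% the PRDM1 core. A match describes letters in the window and is no evidence of binding.

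Libraries held 14881701 to 33010241 reads assigned to genes. Cdk19 was at 1091 ± 62.5 (SD, n = 4) normalized counts in CDK19KO and 1173 ± 43.1 (n = 4) in DKO, against 3157 ± 99.7 (n = 3) in WT. Cdk8 was at 1013 ± 249 (n = 4) in CDK8KO and 994 ± 230 (n = 4) in VAV, and since a whole-gene count cannot check an exon deletion, the labels alone give the Cdk8 genotype. The summed level of 10 skeletal muscle genes was 27093 normalized counts in CDK19KO replicate 4 and 7587 in DKO replicate 4, and at most 368 in the other 17 libraries.

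Per kilobase of exon, the mean level over the 19 libraries was highest for Pou2af1 at 2220 normalized counts per kilobase, followed by Xbp1 at 983, Jchain at 926, Irf4 at 579 and Mzb1 at 142. Sdc1 was at 49.2, Derl3 at 21.0, Prdm1 at 18.5, Fkbp11 at 4.89 and Tnfrsf17 at 4.14. Pou2af1 and Irf4, read as regulators of the wider B lineage, thus lay above Sdc1 (CD138), Prdm1 and Tnfrsf17 (BCMA). The latter are read as plasma cell markers, though Prdm1 is also used by blood cells outside the B lineage. Of the 10 members, 8 had group means in which each neighbouring pair of genotypes overlapped in their libraries, and the exceptions were Prdm1 and Xbp1, in which DKO stood above the next genotype.

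**Figure D1:**
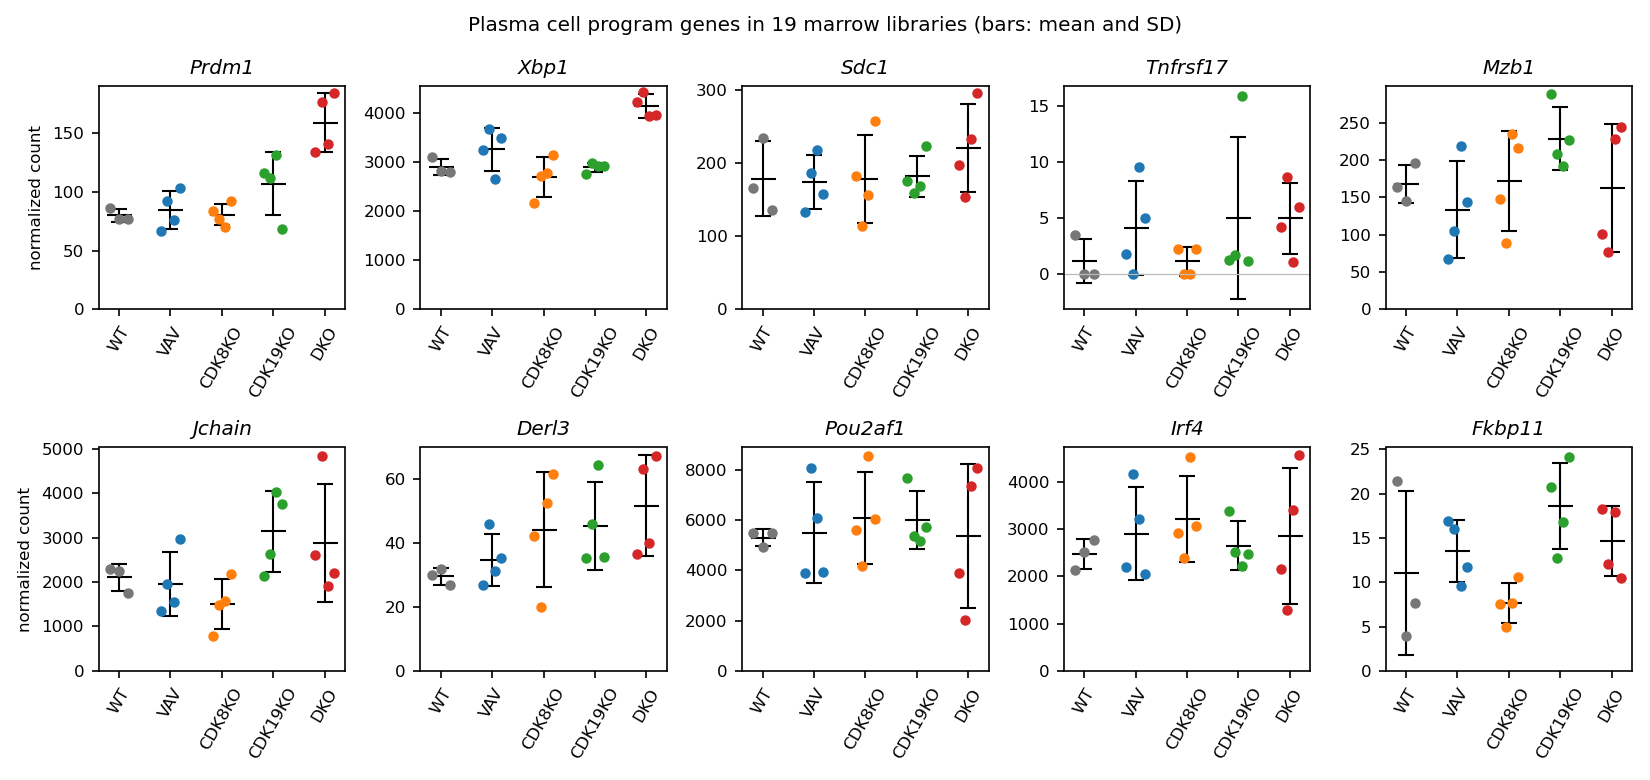
Normalized counts (y axis, linear) of the 10 plasma cell program genes by genotype (x axis); each point is 1 library and bars give the mean and SD of 3 (WT) or 4 libraries. In the Xbp1 and Prdm1 panels the 4 DKO points lie above all 15 others. In the other panels DKO overlaps the other genotypes, except that in the Derl3 panel it lies above WT.

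Xbp1 was higher in DKO marrow than in the marrow of either single knockout. Its normalized counts in the 4 DKO libraries were 4234, 4437, 3948 and 3958. In VAV they were 3238, 3665, 2648 and 3482, and in WT 3098, 2821 and 2789. The 4 CDK8KO libraries had 2165, 2727, 2773 and 3138, and the 4 CDK19KO libraries 2759.8, 2975, 2922 and 2913. The lowest DKO library, at 3948, thus lay above the highest of the 15 other libraries, a VAV library at 3665. The genotype means were 4144 ± 236 (SD, n = 4) in DKO, 3258 ± 443 (n = 4) in VAV, 2903 ± 170 (n = 3) in WT, 2892.5 ± 92.6 (n = 4) in CDK19KO and 2701 ± 402 (n = 4) in CDK8KO. Among VAV, WT, CDK19KO and CDK8KO, neighbours in this order overlapped.

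On the log2(normalized count + 1) scale, which understates the changes of low genes, Xbp1 rose by 0.63 ± 0.11 (SE) in DKO against CDK8KO (limma, Benjamini-Hochberg adjusted p = 0.00621). It rose by 0.52 ± 0.11 in DKO against CDK19KO (limma, adjusted p = 0.0200). The difference of 0.36 ± 0.11 in DKO against VAV, the control that carries Cre, did not pass (limma, adjusted p = 0.137), although the libraries did not overlap. Against WT the rise was 0.51 (limma, adjusted p = 0.0312). In CDK8KO against VAV the Xbp1 value was -0.27 ± 0.11 (limma, adjusted p = 0.586), so the Cdk8 knockout alone gave the lowest mean and the double knockout the highest. The 3 DKO comparisons share the DKO libraries and are not independent. Since these are bulk libraries, a difference in the number of cells of a type and a difference in RNA per cell cannot be told apart, here and below.

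Prdm1, which encodes the repressor BLIMP-1, had a lower level and the same ordering of DKO above the rest. Its normalized counts in DKO were 134, 177, 141 and 184. In VAV they were 66.9, 92.6, 75.8 and 103, and in CDK8KO 83.7, 77.4, 70.04 and 91.9. WT had 86.8, 77.1 and 76.7, while CDK19KO spread from 68.9 to 131, with 116, 112, 131 and 68.9 in replicates 1 to 4. The lowest DKO library (133.6) stood just above the highest of the others, CDK19KO replicate 3 (131.1). Means were 159 ± 25.3 (SD, n = 4) in DKO, 107 ± 26.7 (n = 4) in CDK19KO, 84.6 ± 16.3 (n = 4) in VAV, 80.8 ± 9.30 (n = 4) in CDK8KO and 80.2 ± 5.68 (n = 3) in WT.

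In DKO against VAV, Prdm1 rose by 0.91 ± 0.21 (SE, log2) (limma, adjusted p = 0.0305), a fitted 1.88-fold difference. It rose by 0.96 ± 0.21 in DKO against CDK8KO (limma, adjusted p = 0.0224). In DKO against CDK19KO the difference of 0.59 ± 0.21 did not pass (limma, adjusted p = 0.168), with no overlap between the libraries. In CDK19KO against WT the Prdm1 value was 0.37 ± 0.22 (limma, adjusted p = 1). A level in every DKO library above all 15 others, as seen for Xbp1 and Prdm1, was found in 0.851% of the 13976 tested genes.

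In all, 1 of the 9 tested members passed in DKO against VAV, where 1.52% of all tested genes did. In DKO against CDK8KO 2 members passed against 1.7% of all genes, and in DKO against CDK19KO 1 member passed against 2.0%. The median log2 fold change of the 9 members was 0.32 in DKO against VAV, 0.33 in DKO against CDK8KO and -0.03 in DKO against CDK19KO, beside -0.01, 0.00 and -0.01 over all tested genes. None of the members fell in a DKO comparison. Libraries did not overlap, with DKO higher, for 2 members in each of the 3 comparisons (Xbp1 and Prdm1), as for 4.16%, 3.63% and 7.27% of all tested genes.

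Except for Xbp1 in DKO against CDK8KO, these calls depended on single libraries. The Prdm1 call in DKO against VAV was lost without VAV replicate 1, 2 or 3 or DKO replicate 2, 3 or 4, with adjusted p up to 0.119, and without both muscle-rich libraries (limma, adjusted p = 0.0661). Its call in DKO against CDK8KO was lost without CDK8KO replicate 1 or 3 or DKO replicate 2 or 4 (limma, adjusted p up to 0.0766). The Xbp1 call in DKO against CDK8KO held without any 1 of the 8 libraries (limma, adjusted p 0.00355 to 0.0238). The Xbp1 call in DKO against CDK19KO was lost without any 1 of the 4 CDK19KO libraries or DKO replicate 2 (limma, adjusted p up to 0.0754), and without both muscle-rich libraries (0.0974). With only the 2 compared groups in the limma fit, Prdm1 lost its call against VAV (adjusted p = 0.104) and CDK8KO (0.112) and Xbp1 its call against CDK8KO (0.101). Prdm1 also lost its call against VAV with no filter on low values (limma, adjusted p = 0.0564) and with the replicate number as a block (0.0578). When single libraries were left out the log2 difference of Prdm1 in DKO against VAV stayed between 0.80 and 1.01, and that of Xbp1 in DKO against CDK19KO between 0.48 and 0.54.

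**Figure D2:**
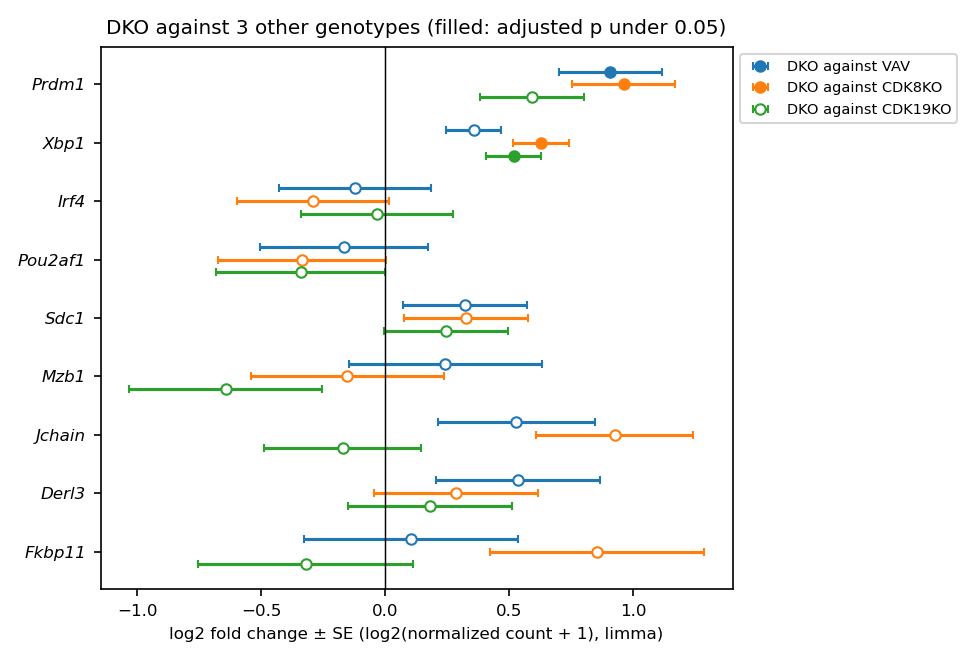
Log2 fold change (x axis, ± SE from limma) of the 9 tested members in DKO against VAV, CDK8KO and CDK19KO (colours); filled points passed an adjusted p under 0.05. The filled points are Prdm1 in 2 comparisons and Xbp1 in 2, and the values of Irf4 and Pou2af1 lie below 0.

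The interaction was the difference of DKO from CDK8KO less that of CDK19KO from WT. It compares the change with the Cdk19 null allele between groups with both the Cdk8 knockout and Vav-iCre and groups with neither. The Cdk8 knockout and Cre cannot be told apart in it. Xbp1 gave 0.63 ± 0.17 (SE) on the log2 scale (limma, adjusted p = 0.210), and Prdm1 gave 0.59 ± 0.31 (limma, adjusted p = 0.610). None of the 9 members passed with limma, where 0.15% of all tested genes did and 1 member, Xbp1, had an unadjusted p under 0.05. With edgeR on the recovered reads no member passed, and with DESeq2 Xbp1 did (adjusted p = 0.0433).

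The surface and secretory genes that mark plasma cells themselves did not follow Xbp1 and Prdm1 in a way that passed the test. Sdc1, which encodes the syndecan CD138, had 198, 154, 233 and 297 normalized counts in DKO and 134, 187, 219 and 158 in VAV. Its CDK8KO libraries spread from 115 to 258, its CDK19KO libraries from 159.7 to 224 and its WT libraries from 136 to 235, so all genotypes overlapped. The log2 difference of Sdc1 was 0.32 ± 0.25 (SE) in DKO against VAV, 0.33 ± 0.25 against CDK8KO and 0.25 ± 0.25 against CDK19KO (limma, adjusted p 0.558, 0.555 and 0.677).

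Tnfrsf17, which encodes BCMA, the receptor for the survival factor APRIL, was near the limit of detection, with 69 reads over the 19 libraries. Its normalized counts were 3.44, 0 and 0 in WT, 1.78, 0, 9.59 and 5.03 in VAV, and 2.17, 0, 0 and 2.26 in CDK8KO. They were 1.22, 1.70, 15.9 and 1.15 in CDK19KO and 4.15, 8.66, 1.05 and 5.995 in DKO. A count of 0, seen in 5 libraries, allows up to 3 reads, which is 2.19 to 3.99 normalized counts at the depths of those libraries and covers counting error only. The libraries of all genotypes overlapped, and no difference between genotypes was detectable at this depth.

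Jchain, which joins the subunits of secreted IgM and IgA, was the most abundant secretory member. Its normalized counts were 2609, 4826, 1909 and 2194 in DKO and 2138, 2627, 4023 and 3764 in CDK19KO. They were 1353, 1954, 1549 and 2972 in VAV, 789, 1494, 1578 and 2179 in CDK8KO, and 2299.6, 2258 and 1756 in WT. The means were higher in the 2 genotypes with the Cdk19 null allele, 3138 ± 901 (SD, n = 4) in CDK19KO and 2884 ± 1326 (n = 4) in DKO, than in the 3 without it, but neighbouring genotypes overlapped. Jchain differed by 0.92 ± 0.32 (SE, log2) in DKO against CDK8KO (limma, adjusted p = 0.151), by 0.53 ± 0.32 in DKO against VAV (0.428) and by 0.54 ± 0.34 in CDK19KO against WT (adjusted p = 1).

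Derl3, part of the machinery that removes misfolded proteins from the endoplasmic reticulum and the member with the stress element shown above, had 36.5, 63.2, 40.0 and 67.4 normalized counts in DKO. It had 35.4, 45.9, 64.6 and 35.6 in CDK19KO, 26.8, 45.9, 31.4 and 35.2 in VAV, and 30.1, 31.9 and 26.9 in WT. CDK8KO covered the whole of the VAV range, from 19.97 to 61.8. The CDK19KO libraries lay above the WT libraries, as for 3.56% of all tested genes in that comparison, with a log2 difference of 0.56 ± 0.36 (SE; limma, adjusted p = 1). In DKO against VAV the Derl3 difference was 0.54 ± 0.33 (limma, adjusted p = 0.442). The DKO libraries also lay above the WT libraries, and the share of all genes that did so is not given here. Against WT the DKO difference was 0.74 ± 0.36 (limma, adjusted p = 0.340).

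Fkbp11, a secretory prolyl isomerase, was low in all libraries. It had 18.3, 12.1, 17.9 and 10.5 normalized counts in DKO, 20.7, 12.7, 16.9 and 24.1 in CDK19KO and 7.61, 4.99, 7.66 and 10.5 in CDK8KO. The VAV libraries had 16.9, 16.04, 9.59 and 11.7, and the WT libraries 21.5, 3.99 and 7.67. The log2 difference in DKO against CDK8KO was 0.85 ± 0.43 (SE; limma, adjusted p = 0.344), and in DKO against VAV 0.10 ± 0.43 (adjusted p = 0.931).

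Mzb1, a chaperone of immunoglobulin assembly in marginal zone B cells and plasma cells, had 101.3, 76.2, 228 and 244 normalized counts in DKO. VAV had 66.9, 104, 219 and 143, CDK8KO 148, 88.6, 234 and 216, and WT 163, 145 and 196. CDK19KO had 288, 207, 192 and 227 and the highest mean, 229 ± 42.0 (SD, n = 4). In DKO, replicates 1 and 2 were low and replicates 3 and 4 high. The log2 difference was 0.24 ± 0.39 (SE) in DKO against VAV and -0.64 ± 0.39 in DKO against CDK19KO (limma, adjusted p 0.798 and 0.436). Mzb1 overlaps the gene SPATA24 on the same strand over nearly its whole length in the GENCODE annotation, so reads could be divided between them and its counts are uncertain.

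The other 2 regulators, Irf4 and Pou2af1, varied within genotypes far more than between them. Irf4 had 2148, 1284, 3395 and 4561 normalized counts in DKO, so that DKO held both the lowest and the highest of the 19 libraries. VAV had 2188, 4157, 3220.1 and 2043, and CDK8KO 2911, 2379, 4519 and 3059. CDK19KO had 3388, 2517, 2220.3 and 2483 and WT 2142, 2506 and 2776. Group means for Irf4 differed by at most 1.30-fold.

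Pou2af1 followed the same libraries. Its normalized counts were 3910.1, 2032, 7355 and 8083 in DKO, 3892, 8072, 6088 and 3912 in VAV, and 5589, 4162, 8553 and 6036 in CDK8KO. They were 7682, 5371, 5148 and 5735 in CDK19KO and 5470.2, 4907 and 5499 in WT. DKO against VAV gave -0.12 ± 0.31 (SE, log2) for Irf4 and -0.17 ± 0.34 for Pou2af1 (limma, adjusted p 0.877 and 0.849), and both values turned positive, 0.21 and 0.23, without DKO replicate 2. A predicted gene within an intron of Pou2af1 on the same strand, Gm47828, could share some of its reads.

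Over the 19 libraries the log2 values of Irf4 and Pou2af1 had a Pearson r of 0.94 and a Spearman rho of 0.92 (permutation p = 1e-05 for each, the smallest that 100000 resamples can give, Benjamini-Hochberg adjusted 0.00036 over 36 pairs of members). Without the 2 libraries farthest from the Pou2af1 median r was 0.90, and after each genotype mean was subtracted it was 0.97. Pou2af1 and Mzb1 gave r = 0.72 and rho = 0.81 (permutation p = 0.00032 and 0.0001, adjusted 0.00576 and 0.0018), with r = 0.59 without the 2 libraries farthest from the Mzb1 median and 0.77 after genotype means were subtracted. Over the 15 libraries other than DKO, r for Pou2af1 and Mzb1 was 0.57 (permutation p = 0.0279, adjusted 0.305), which did not pass. For Irf4 and Pou2af1 it was 0.90 over these 15 libraries (permutation p = 1e-05, adjusted 0.00036). Irf4 and Jchain went in opposite directions, with r = -0.49 and rho = -0.48 (permutation p = 0.0333 and 0.0375, adjusted 0.133 and 0.148), which did not pass. For Prdm1 and Xbp1 the DKO libraries form a cluster of their own, so r was taken over the other 15 libraries, where it was 0.18 with rho 0.24 (permutation p = 0.519 and 0.396, adjusted p for r = 0.731), and 0.33 without the 2 libraries farthest from the Prdm1 median. Over all 19 libraries r for Prdm1 and Xbp1 was 0.69 (permutation p = 0.00085, adjusted 0.0102), and 0.23 after genotype means were subtracted.

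**Figure D3:**
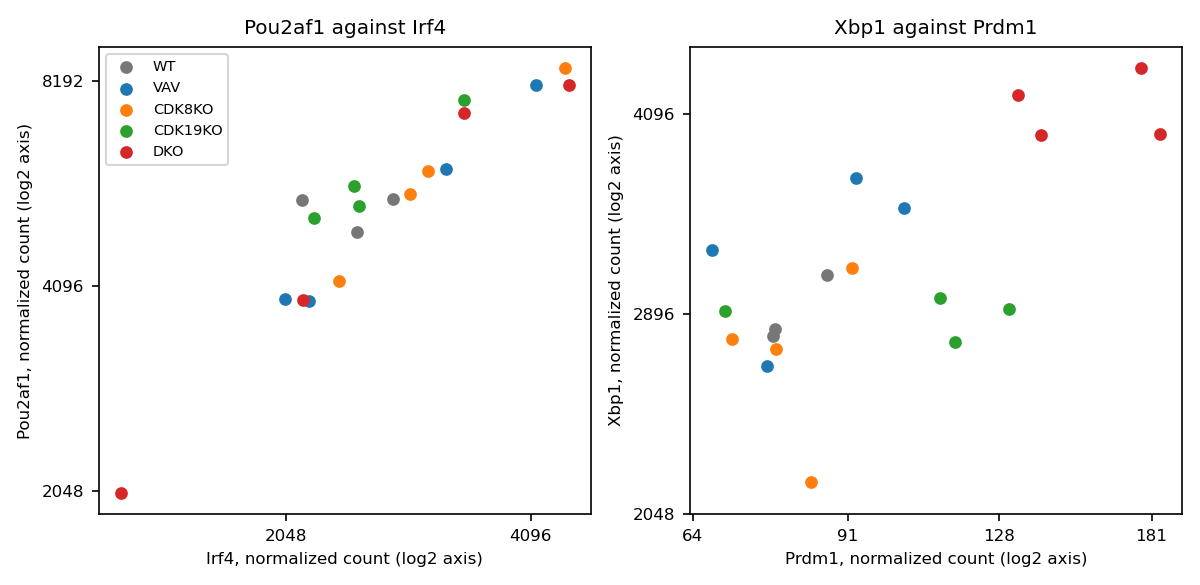
Normalized counts (log2 axes) of Pou2af1 against Irf4 (left) and of Xbp1 against Prdm1 (right) in 19 libraries coloured by genotype. Pou2af1 rises with Irf4 over the 19 libraries, though not in step among the 3 WT libraries, and the 4 DKO points stand apart at the upper right for Prdm1 and Xbp1.

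The genes whose levels over the 19 libraries were most like Irf4 were Vpreb3, a B lineage gene whose product binds immunoglobulin heavy chains in the endoplasmic reticulum (Pearson r = 0.98), Rag1, of the V(D)J recombinase (0.94), and Pax5, the B cell identity factor (0.94). The genes most like Jchain were Bambi-ps1 (0.78), the kappa light chain constant gene Igkc (0.75) and Cdk18 (0.75). Socs1 (0.87), Cep68 (0.83), H2-Q6 (0.82), Lef1 (0.82), Prep (0.81) and Cyp11a1 (0.80) were most like the mean standardised profile of the 9 tested members. These are descriptions over 19 libraries that differ in depth and in cell type markers.

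Single libraries carried much of the spread in DKO. DKO replicate 2 had the highest Xbp1 and Jchain and the lowest Irf4 and Pou2af1 of the 19 libraries, and DKO replicate 4, 1 of the 2 muscle-rich libraries, had the highest Prdm1, Sdc1, Derl3 and Irf4. Outside DKO, CDK19KO replicate 3 had the highest Prdm1, Jchain and Derl3 as well as the highest Tnfrsf17 of all. The lowest Xbp1 and Jchain were both in CDK8KO replicate 1, which also had the highest summed level of 14 erythroid genes, 882322 normalized counts against 34526 to 96485 in DKO. The part of erythroid RNA in these values was not tested.

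A list of 47 secretory and endoplasmic reticulum genes linked to XBP1 also held Atf6, Atf4, Ddit3 and Ern1, which encodes IRE1, so not all are its targets. Of the 47 genes, 46 were tested. None passed in DKO against VAV, CDK8KO or CDK19KO. The values of 27, 32 and 38 of the 46 were positive in these comparisons, with medians of 0.04, 0.09 and 0.12 on the log2 scale. A positive lean was not particular to DKO, since VAV against WT had 36 positive values and a median of 0.16. CDK19KO against WT had 28 positive values (median 0.05) and CDK8KO against VAV had 13 (median -0.09). Hsp90b1, the endoplasmic chaperone GRP94, had 12738 ± 724 (SD, n = 4) normalized counts in DKO and 12546 ± 1866 (n = 4) in VAV. Hspa5, the chaperone BiP, had 7223 ± 437 in DKO and 7620 ± 598 in VAV (n = 4 each), with a log2 difference of -0.08 ± 0.12 (SE; limma, adjusted p = 0.803). The summed level of the 47 genes was 117699 to 136023 in DKO, within the 107534 to 141063 of VAV.

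Of the 24 B cell identity genes that are shut off in plasma cells, Bcl6, the germinal centre repressor that opposes BLIMP-1, fell in DKO against VAV by 0.56 ± 0.12 (SE, log2; limma, adjusted p = 0.0275), from 2685 ± 273 to 1823 ± 151 normalized counts (SD, n = 4 each). The call was lost without VAV replicate 1, 2 or 4 or DKO replicate 1, 3 or 4 (limma, adjusted p up to 0.0950) and without both muscle-rich libraries (0.117) and with only the compared groups in the fit (0.0571), and Bcl6 did not pass against WT (0.571). WT, at 2062 ± 123 (n = 3), lay nearer to DKO than VAV did. Against CDK8KO and CDK19KO no gene of this list passed. The medians of the list were 0.01, -0.24 and -0.20 in DKO against VAV, CDK8KO and CDK19KO. Pax5 had -0.32 ± 0.39 in DKO against VAV (limma, adjusted p = 0.718).

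Immunoglobulin constant genes encode parts of the main product of plasma cells. Of 11 tested genes of 12, Ighg1 rose, Ighg2c and the light chain gene Iglc2 fell, and 8 did not pass in DKO against VAV. Ighg1 had 813, 1118, 445 and 640.0 normalized counts in DKO against 69.6, 151, 158 and 191 in VAV, a log2 difference of 2.41 ± 0.53 (SE; limma, adjusted p = 0.0248). Ighg2c had 115, 131, 21.1 and 13.5 in DKO against 243, 811, 338 and 926 in VAV, a difference of -3.41 ± 0.67 (limma, adjusted p = 0.0126). Iglc2 had 307, 465, 349 and 809 in DKO against 948, 1079, 1138 and 1622 in VAV, a difference of -1.38 ± 0.33 (limma, adjusted p = 0.0376). The DKO libraries lay above all VAV libraries for Ighg1, as for 4.16% of all tested genes. They lay below all VAV libraries for Ighg2c and Iglc2, and the share of all genes that did so is not given here. Constant genes of the IgG classes are near-identical in parts, so reads could be divided between them and these values are uncertain.

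In DKO against CDK8KO, Ighg2c fell by 3.11 ± 0.67 and Iglc2 fell by 1.49 ± 0.33 (limma, adjusted p 0.0224 and 0.0233), and Ighg1 rose by 2.22 ± 0.53 in DKO against CDK19KO (limma, adjusted p = 0.0363). These calls rested on few libraries. In DKO against VAV, Ighg2c was lost without DKO replicate 3 or 4 (limma, adjusted p up to 0.0566), Ighg1 without VAV replicate 1 or 2 or DKO replicate 1, 2 or 4 (0.0956), and Iglc2 without any 1 library other than DKO replicate 4 (0.144). In DKO against CDK8KO, Ighg2c was lost without CDK8KO replicate 3 or DKO replicate 3 or 4 (0.0810), and Iglc2 without CDK8KO replicate 3 or DKO replicate 1, 2 or 3 (0.0763). In DKO against CDK19KO, Ighg1 was lost without CDK19KO replicate 1, 2 or 3 or DKO replicate 1, 2 or 4 (0.120). Against VAV, Ighg1 and Ighg2c were also lost without both muscle-rich libraries (limma, adjusted p = 0.0618 and 0.0626), as were Ighg2c against CDK8KO (0.0968) and Ighg1 against CDK19KO (0.0698). With only the compared groups in the fit, Ighg2c (0.0777) and Iglc2 (0.0638) were lost against VAV, and both against CDK8KO (0.128 and 0.213). Against WT in place of VAV, Ighg1 differed by 1.66 (limma, adjusted p = 0.158), with WT replicate 2 at 484 above the lowest DKO library, and Ighg2c by -2.54 (0.0761). Iglc2 against VAV did not pass with edgeR (adjusted p = 0.0665) or with no filter on low values (limma, 0.0541), nor Ighg1 against CDK19KO with no filter (0.0504). The median of the list was -0.46, -0.58 and -0.56 in DKO against VAV, CDK8KO and CDK19KO. Igkc, the most common light chain constant gene in mice, had 6958, 7941, 6318 and 5277 in DKO, within the 2665 to 9055 of VAV.

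Of 35 further genes for plasma cell surface, survival and association, 33 were tested. Prg2 rose by 2.52 ± 0.53 (SE, log2) in DKO against VAV and by 3.18 ± 0.53 against CDK8KO (limma, adjusted p 0.0198 and 0.00370). Prg2 encodes the major basic protein of eosinophil granules and is also on the eosinophil list. Zbp1, a sensor of nucleic acids, rose by 0.93 ± 0.22 against CDK8KO and by 1.10 ± 0.22 against CDK19KO (limma, adjusted p 0.0364 and 0.0137), and Cd28, a costimulatory receptor of T cells that plasma cells also carry, rose by 1.21 ± 0.23 against CDK19KO (limma, adjusted p = 0.00832). None of the 33 fell in these comparisons, and the medians were -0.02, 0.08 and 0.13. The Prg2 call against VAV was lost without VAV replicate 1 or DKO replicate 3 or 4 (limma, adjusted p up to 0.0759), and Zbp1 without 6 of 8 libraries against CDK8KO (CDK8KO replicates 1 and 3 and each DKO library, 0.126) and without CDK19KO replicate 2 or 4 or DKO replicate 2 against CDK19KO (0.0535). Without both muscle-rich libraries, Prg2 against VAV (limma, adjusted p = 0.0820), Zbp1 against CDK8KO (0.0893) and CDK19KO (0.0974) and Cd28 against CDK19KO (0.0561) did not pass. With only the compared groups in the fit, Prg2 did not pass against VAV (limma, adjusted p = 0.109) or CDK8KO (0.0664), nor Zbp1 against CDK8KO (0.105), and against WT the Prg2 difference was 1.62 (0.169). With no filter on low values Zbp1 did not pass against CDK8KO (0.0501).

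**Figure D4:**
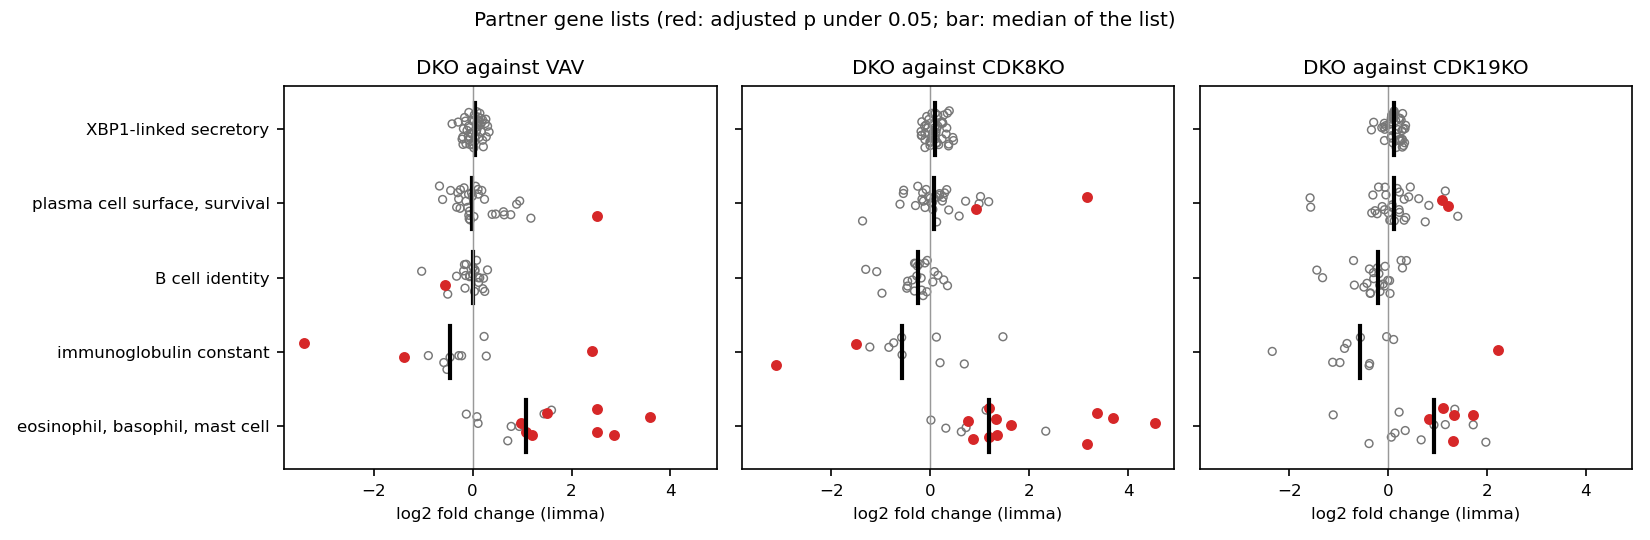
Log2 fold changes from limma (x axis) of the tested genes of 5 lists (rows) in DKO against VAV, CDK8KO and CDK19KO (panels); red points passed an adjusted p under 0.05 and black bars are list medians. The 46 XBP1-linked secretory genes hold no red point, and the eosinophil, basophil and mast cell list holds 8, 11 and 5.

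Markers of other cell types also differed between DKO and the other genotypes. Of 17 eosinophil, basophil and mast cell genes, 8 rose against VAV, 11 against CDK8KO and 5 against CDK19KO, and none fell. Their summed level lay between 15417 and 30038 normalized counts in the DKO libraries, against 7995 to 13433 for VAV, 6315 to 12033 for CDK8KO, 9310 to 13709 for CDK19KO and 10799 to 13181 for WT, with none of the 17 genes at 0 in any library. Fcer1a, the IgE receptor alpha chain, rose by 1.51 ± 0.21 (SE, log2) against VAV (limma, adjusted p = 0.000815). Of 15 T and NK cell genes, Cd8a rose and Ncr1 fell in each of the 3 comparisons, where the Ncr1 calls were lost when single libraries of either compared genotype were left out (limma, adjusted p up to 0.0868, 0.0628 and 0.0951). The Cd8a call against VAV held without any 1 of the 8 libraries, though Cd8a did not pass against WT (limma, adjusted p = 0.104). Against CDK8KO it was lost without CDK8KO replicate 1 or DKO replicate 2, 3 or 4 (up to 0.0612), without both muscle-rich libraries (0.0775) and with only the compared groups in the fit (0.125). Against CDK19KO it was lost without DKO replicate 2 (0.0507) and without both muscle-rich libraries (0.0961). The summed level of the 15 genes was 2975 to 5865 in DKO and 2960 to 3214 in VAV. Of 12 macrophage genes, 3, 3 and 6 fell, including the scavenger receptor Cd163, which had 67.0 ± 12.2 normalized counts in DKO and 550.4 ± 117 in VAV (SD, n = 4 for both; log2 difference -3.01 ± 0.21, limma adjusted p = 6.48e-08). Of 14 plasmacytoid dendritic cell genes 1 rose in each comparison (Lair1, Lair1 and Ccr9, each lost when certain single libraries were left out, with limma adjusted p up to 0.140, 0.123 and 0.0991), and the summed level was 13539 to 23418 in DKO and 13917 to 17909 in VAV. Of 11 tested conventional dendritic cell genes, Cd209a, which encodes a C-type lectin, fell in each comparison, with 52.5 ± 17.9 normalized counts in DKO and 146 ± 40.7 in VAV (SD, n = 4 for both; log2 difference -1.50 ± 0.37, limma adjusted p = 0.0458). Its call against VAV was lost without any 1 of the 8 libraries (limma, adjusted p up to 0.118), and its call against CDK19KO without CDK19KO replicate 1, 2 or 4 or DKO replicate 1 (0.0794). None of the 14 erythroid genes passed, but their values were negative for 13 against VAV and for all 14 against CDK8KO and CDK19KO, with medians of -0.57, -1.61 and -1.39. These genes also shifted between genotypes other than DKO. Their values were negative for all 14 in VAV against WT (median -0.71). They were positive for all 14 in CDK8KO against VAV (median 1.13) and for 13 in CDK19KO against WT (median 0.25). The summed erythroid level of the DKO libraries, 34526 to 96485 normalized counts, lay below each library of WT (132459 to 233926), CDK8KO (96570.4 to 882322) and CDK19KO (125136 to 316302) and within the wide range of VAV (29627 to 752149). Of 17 mature B cell genes and 14 tested B cell precursor genes none passed. The part of these cells in the Xbp1 and Prdm1 values was not tested.

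In the single knockouts no member passed. In CDK8KO against VAV none of the 9 members was called with limma, edgeR or DESeq2, 0.0% of all tested genes were called with limma, and 1 member, Xbp1, had an unadjusted p under 0.05. In CDK19KO against WT none was called by these 3 tools against 0.0215% of all genes with limma, no member had an unadjusted p under 0.05, and 8 of the 9 values were positive, with a median of 0.37 beside 0.00 over all tested genes. The largest was Fkbp11 at 0.95 ± 0.47 (SE, log2; limma, adjusted p = 1). WT was free of Cre and had 3 libraries, and the effect of Cre alone, VAV against WT, called none of the 9 members with the 3 tools (0.093% of all genes with limma; no member with an unadjusted p under 0.05), with a median of 0.06. No gene of the partner and marker lists passed with limma in CDK8KO against VAV, CDK19KO against WT or VAV against WT.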

How the data were processed

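RNA was extracted with Trizol, made into libraries with a Kapa mRNA kit and read in pairs of 150 bases, per the labels. The submitters' processing notes name Salmon 1.4.0, DESeq2 and mm10, without their roles; the annotation release is not given in the sources used here. The authors deposited a signal per gene and library, its read count divided by a factor of the library (normalized count). In every library 100% of the values gave whole reads (within 0.001 read) when divided by 1 step, so the reads were recovered. On these reads edgeR's quasi-likelihood test called 200 genes and DESeq2 504 in DKO against VAV, against 213 with limma.

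Genes with a mean of at least 10 were fitted as log2(normalized count + 1) with limma 3.58.1 (lmFit and eBayes with trend, R 4.3.3), all 5 groups in 1 fit and no covariate. P-values were adjusted over 13976 genes within each comparison by the Benjamini-Hochberg method, and a gene was called at an adjusted p under 0.05. Alternatives were edgeR 4.0.16 and DESeq2 1.42.0 on the recovered reads, TMM scaling, pseudocounts of 0.5 and 5, no filter or a minimum of 50, only the groups compared, a replicate block, each library left out, no muscle-rich libraries, and WT as the control. The method was tested on simulated data for DKO against VAV. It called 56% of 100 genes changed by 1 on the log2 scale and 86% of 100 changed by 2, with 10 false calls. Real changes of such sizes can therefore fail to pass.

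The members and gene lists were chosen with earlier results of these data known. All members were named; of each list, up to 4 called genes with the smallest p, or 2 of the highest level where none was called; and the genes most like the members by Pearson r over the 19 libraries. Other genes (Pax5, Igkc) were named after their values were seen. Positions of members are from GENCODE vM21 (GRCm38), and promoters are from RefSeq. The sign ± stands before an SD where it follows a normalized count, and before an SE where it follows a log2 difference.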

Additional observations from a re-analysis of the deposited data

Results flagged for a closer look

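Tnfrsf17 was at 15.9 normalized counts in CDK19KO replicate 3, while the other 3 CDK19KO libraries had 1.22, 1.70 and 1.15. This library stood apart from its group by Dixon's test, the only such case among 40 sets of 4 libraries (10 members in 4 genotypes), of which chance gives about 2. The same library had the highest Prdm1, Jchain and Derl3 outside DKO.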

How the results depend on the processing

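The same-numbered libraries of different genotypes deviated with correlations of -0.136 to 0.306. Differently numbered libraries were not compared, so these values cannot decide whether the replicate numbers pair the libraries. With a replicate block the number of members called in DKO against VAV went from 1 to 0 (Prdm1, limma adjusted p = 0.0578). The block changed no other count of members. The count in DKO against VAV was also 0 without a filter on low values, with only the groups compared in the fit and without the 2 muscle-rich libraries. It was 2 with WT as the control, and 0 to 1 when single libraries were left out. In DKO against CDK8KO the count of 2 became 0 with only the groups compared and 1 to 2 with single libraries left out, and in DKO against CDK19KO the count of 1 became 0 without the muscle-rich libraries and 0 to 1 with single libraries left out. DESeq2 called 1 member in the interaction. The counts of members in CDK8KO against VAV, CDK19KO against WT and VAV against WT stayed at 0 in every setting run. With WT as the control the log2 value turned to -0.21 for Mzb1 and 0.20 for Hspa5 in DKO and to -0.055 for Mzb1 in CDK8KO. Leaving out single libraries gave ranges that crossed 0, none of them called: for Pou2af1 from -0.43 to 0.23 against VAV, -0.60 to 0.063 against CDK8KO and -0.61 to 0.058 against CDK19KO, for Irf4 from -0.40 to 0.21, -0.57 to 0.040 and -0.31 to 0.30 (each positive without DKO replicate 2), and for Derl3 in DKO against CDK8KO from -0.046 (without CDK8KO replicate 2) to 0.48. A change of sign smaller than 1 SE with neither value called was not counted. Settings that leave out libraries fit fewer samples, and for the others the cause was not tested. Over all genes, limma's 213, 238 and 279 calls in DKO against VAV, CDK8KO and CDK19KO became 504, 711 and 601 with DESeq2, 99, 31 and 968 with only the groups compared, and 102, 92 and 97 without the muscle-rich libraries; the interaction went from 21 to 98 with DESeq2 and 11 without the muscle-rich libraries. Over all settings that keep every replicate or leave out the muscle-rich libraries, CDK8KO against VAV had 0 to 1 calls (12 with WT as the control), CDK19KO against WT 1 to 15 and VAV against WT 3 to 320, against 0, 3 and 13. Depth limits Tnfrsf17 and, with under 25 normalized counts in each library, Fkbp11.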
